A study of Mus musculus with 12 samples.

Results

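The receptors described here are the odorant receptor (OR) genes of the class I cluster on mouse chromosome 7 that lie in a proximal stretch on one side of the J element, *Olfr33* and *Olfr559* to *Olfr605*. Members were the probe sets whose first gene symbol in the platform annotation was *Olfr33* or *Olfr559* to *Olfr605*, inside the cluster, without the ending that marks a pseudogene and without *Olfr78* among the symbols. This gave 33 of 35556 probe sets on the array, 33 of 1213 OR probe sets and 33 of 128 probe sets of intact class I genes of the cluster. The rule uses position and name, not expression. Their genes occupy chr7:102713455-103443150 (GRCm38.p6), a stretch of 729696 bases that begins 0.204 Mb and ends 0.932 Mb from the middle of J. RefSeq lists 35 protein-coding OR genes and 14 OR pseudogenes in it, beside 2 coding genes of another family, *Usp17ld* and *Usp17lc*.

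RNA of the main olfactory epithelium (MOE) was hybridised to Affymetrix Mouse Gene 1.0 ST arrays, 1 per mouse, from 6 ΔJ and 6 wild-type littermates. ΔJ mice were homozygous for a CRISPR-Cas9 deletion of the J element, an enhancer of class I ORs, on both copies of chromosome 7. They came from a single founder line made in B6C3F1 eggs and crossed to C57BL/6, so that an effect of the line cannot be told apart from one of the deletion, and the labels give C57BL/6 as the strain of all mice. The ΔJ group held 3 males and 3 females, the wild-type group 2 males and 4 females. All mice were at postnatal day 30 (P30) except 1 ΔJ and 2 wild-type mice at P33. The labels do not say from which litters the mice came.

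Each mature olfactory sensory neuron (OSN) transcribes a single OR gene from one allele, and class I and class II genes are chosen by separate sets of neurons. Class I receptors, the family shared with fish, sit in a single cluster in mammals, are mostly used by neurons of the dorsal zone, and include many receptors for carboxylic acids. An OR gene can be chosen with the help of an enhancer on the same chromosome, where the homeodomain protein LHX2, the helix-loop-helix protein EBF1 and the adaptor LDB1 bind. In whole tissue, fewer neurons that chose a receptor and less RNA of it in each neuron cannot be told apart.

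Sequence at the gene starts was compared first, because several neighbours are near-copies of each other that the array resolves only in part. RefSeq windows (GRCm38.p6) from 250 bases before to 50 bases from the gene start were at hand for 29 of the 33 members. In 24 of them the gene start is an ATG, so these windows mark the start codon and are not known to hold the transcription start. The windows of *Olfr596* (chr7:103309473-103309772, plus strand) and *Olfr603* (chr7:103383951-103384250, minus strand) were the same in all 300 bases, and 1 probe set carries both symbols. That shared sequence is shown with homeodomain words and the start codon in capitals.
Olfr596: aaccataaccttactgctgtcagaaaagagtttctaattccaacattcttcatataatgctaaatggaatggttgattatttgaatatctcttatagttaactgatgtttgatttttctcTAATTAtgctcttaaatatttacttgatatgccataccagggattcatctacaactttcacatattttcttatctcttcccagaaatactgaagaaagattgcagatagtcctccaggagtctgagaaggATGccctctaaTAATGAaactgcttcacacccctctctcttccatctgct

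*Olfr593* (chr7:103211612-103211911) and *Olfr594* (chr7:103219470-103219769), adjacent genes on the plus strand, are shown in the same way because their difference in response to ΔJ had the smallest p among neighbouring members. The *Olfr593* window holds 2 homeodomain words and that of *Olfr594* holds none.
Olfr593: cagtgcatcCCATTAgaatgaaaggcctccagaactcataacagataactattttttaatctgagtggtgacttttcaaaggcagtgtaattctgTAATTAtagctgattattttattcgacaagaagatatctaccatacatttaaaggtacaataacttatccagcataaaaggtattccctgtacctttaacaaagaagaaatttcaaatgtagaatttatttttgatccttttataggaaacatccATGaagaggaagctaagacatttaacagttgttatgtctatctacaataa
Olfr594: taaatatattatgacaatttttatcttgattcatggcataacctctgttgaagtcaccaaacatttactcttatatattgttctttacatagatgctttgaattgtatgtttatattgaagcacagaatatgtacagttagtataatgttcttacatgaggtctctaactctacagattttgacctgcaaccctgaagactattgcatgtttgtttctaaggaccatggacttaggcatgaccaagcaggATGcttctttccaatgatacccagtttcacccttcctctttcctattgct

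*Olfr582* (chr7:103041231-103041530) and *Olfr584* (chr7:103085270-103085569), both on the plus strand, are a pair of near-copies measured by separate probe sets, 1 of which also carries the symbol of the other gene. Their aligned windows shared 263 bases (85.9%), against a median of 52.2% over 406 pairs of member windows. Capitals mark the bases without an identical partner in the other gene.
Olfr582: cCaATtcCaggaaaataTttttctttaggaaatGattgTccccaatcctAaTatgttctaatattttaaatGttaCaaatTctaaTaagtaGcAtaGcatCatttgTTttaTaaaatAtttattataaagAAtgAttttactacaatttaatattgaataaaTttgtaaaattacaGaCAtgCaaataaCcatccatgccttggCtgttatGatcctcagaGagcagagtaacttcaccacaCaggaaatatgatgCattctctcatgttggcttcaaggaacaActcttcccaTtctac
Olfr584: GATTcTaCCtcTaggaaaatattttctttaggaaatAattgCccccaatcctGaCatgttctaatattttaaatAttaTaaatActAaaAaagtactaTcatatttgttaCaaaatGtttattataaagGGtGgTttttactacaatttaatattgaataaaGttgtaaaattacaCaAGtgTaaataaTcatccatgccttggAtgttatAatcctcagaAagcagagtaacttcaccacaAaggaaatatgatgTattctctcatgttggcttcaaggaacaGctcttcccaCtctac

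Simple homeodomain sites were searched on both strands as the word TAATGA or its variant forms, which were TAATGG, then also TAATTA, and lastly the form TAATTG. They occurred in 17 of 29 member windows (58.6%). They were in 12 of 20 windows of members decreased in ΔJ and in 5 of 9 windows of members that were not. The share was 54.4% in 79 windows of other class I genes, 61.8% in 830 windows of class II genes and 25.3% in 32851 windows of all genes. TATAAA occurred in 13 member windows (44.8%), against 38.0% of windows of other class I genes, 41.2% of class II windows and 13.6% of all windows. Member windows held only 25.3% to 41.7% G or C, and no share was adjusted for base composition. The O/E site was searched only as the palindrome bound by the EBF family. The looser O/E-like site that the paper describes in J was not searched, so its presence in these windows is not known. The palindrome and the word AAACTTTTC, which is part of J, were in 0 member windows, and in 0.904% and 0.417% of all windows. These counts describe letters in a fixed window and say nothing of binding.

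Levels are given as log2 signal minus the 75th percentile of the array, so that a level of 0 is the signal of that percentile. The level of a probe set is compared only between mice, apart from a rough gauge of background and the marker genes of the tissue. In both of these, levels of separate genes are only roughly comparable. A member was called decreased when the mean of the ΔJ mice was more than 1.3-fold below that of the wild-type mice at a Benjamini-Hochberg adjusted p under 0.05, from limma fitted over all 1213 OR probe sets. These receptors fell broadly but not uniformly. Of the 33 members, 23 were decreased and 0 were increased, where 6.18% of all OR probe sets were decreased and 0.0824% increased. The log2 fold change was negative in 32 of 33 members, with a median of -0.77, or 58.7% of the wild-type level, and a range from -1.49 to 0.046. A negative sign was common elsewhere too, in 790 of all 1213 OR probe sets. It was found in 85 of 95 other intact class I sets and in 662 of 1072 class II sets. Called members stood at 35.5% to 69.7% of wild-type, and 10 had fallen by more than 2-fold. Fitted and adjusted over every probe set of the array, of which 0.129% were decreased, 15 members were called. In 19 members, all of them called, the highest ΔJ mouse lay below the lowest wild-type mouse, as in 5.36% of OR probe sets. The 4 called members with overlapping groups were *Olfr576*, *Olfr577*, *Olfr598* and *Olfr603*.

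**Figure D1:**
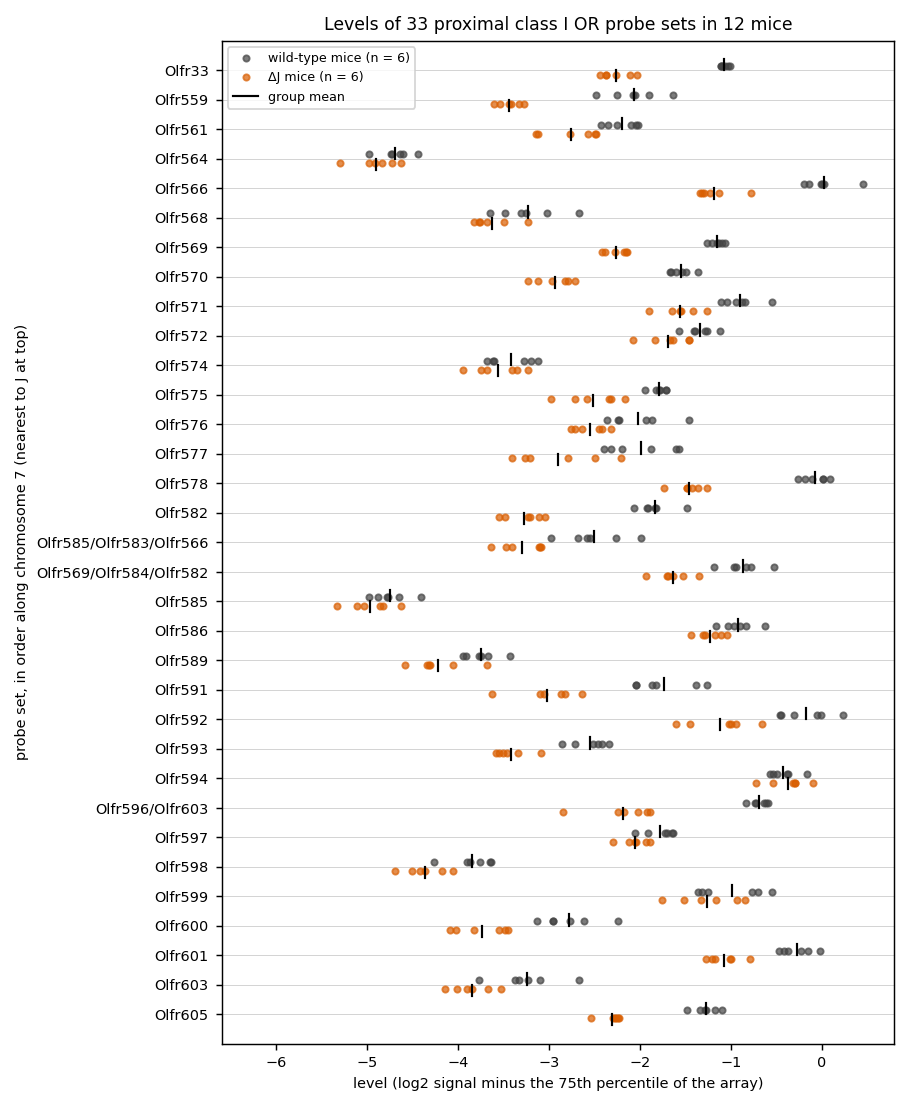
Level of each member (log2 signal minus the 75th percentile of the array, horizontal) in 6 wild-type (grey) and 6 ΔJ mice (orange), with black bars for group means, in order along chromosome 7 from the member nearest to J. The orange points lie wholly to the left of the grey in 19 of 33 members, and in *Olfr594* the groups overlap throughout.

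The probe set of *Olfr596* and *Olfr603* had the largest decrease of the members. It ranged from -0.83 to -0.59 (median -0.68) in wild-type mice and from -2.84 to -1.88 (median -2.10) in ΔJ mice. The groups were more than 1 log2 unit apart, and the log2 fold change was -1.49 (SE 0.15, adjusted p = 3.48e-06 by limma). *Olfr582* ranged from -2.07 to -1.48 (median -1.87) in wild-type and from -3.55 to -3.04 (median -3.22) in ΔJ mice. With no overlap, it changed by -1.44 (SE 0.12, adjusted p = 9.01e-07 by limma). *Olfr578* ranged from -0.26 to 0.090 (median -0.047) in wild-type mice and from -1.74 to -1.26 (median -1.45) in ΔJ mice. Again no ΔJ mouse reached the lowest wild-type mouse, and the log2 fold change was -1.39 (SE 0.11, adjusted p = 3.61e-07 by limma).

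*Olfr570* lay between -1.67 and -1.36 (median -1.57) in wild-type and between -3.23 and -2.71 (median -2.90) in ΔJ mice. It fell to 38.2% of wild-type (log2 fold change -1.39, SE 0.11, adjusted p = 6.10e-07 by limma), with all ΔJ mice below all wild-type mice. *Olfr559*, the second member from J, ranged from -2.48 to -1.64 (median -2.07) in wild-type and from -3.60 to -3.27 (median -3.43) in ΔJ mice. The groups did not overlap, and its level fell to 38.8% of wild-type (log2 fold change -1.37, SE 0.13, adjusted p = 3.48e-06 by limma). *Olfr591* ranged from -2.04 to -1.26 (median -1.84) in wild-type and from -3.63 to -2.64 (median -2.96) in ΔJ mice. It was among the more variable members in both groups, which nevertheless did not overlap, at a log2 fold change of -1.28 (SE 0.18, adjusted p = 0.000135 by limma).

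*Olfr566* had wild-type levels from -0.20 to 0.46 (median -0.00050) and ΔJ levels from -1.33 to -0.78 (median -1.26). In each group 1 mouse was well above the other 5, but the groups did not overlap (log2 fold change -1.20, SE 0.13, adjusted p = 1.07e-05 by limma). *Olfr33*, the member nearest to J, ranged only from -1.11 to -1.01 (median -1.08) in wild-type mice and from -2.44 to -2.03 (median -2.32) in ΔJ mice. Its wild-type mice lay close together, far from the ΔJ mice, and it fell to 43.7% of wild-type (log2 fold change -1.19, SE 0.10, adjusted p = 7.30e-07 by limma). *Olfr605*, the farthest member, ranged from -1.48 to -1.10 (median -1.28) in wild-type and from -2.53 to -2.22 (median -2.26) in ΔJ mice. Its groups did not overlap either, and it stood at 49.0% of wild-type (log2 fold change -1.03, SE 0.10, adjusted p = 3.48e-06 by limma).

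The remaining 14 called members changed by -1.11 to -0.52 on the log2 scale. *Olfr569* (-1.11), *Olfr600* (-0.96), *Olfr592* (-0.94), *Olfr577* (-0.90), *Olfr593* (-0.87), *Olfr601* (-0.80), the probe set of *Olfr585*, *Olfr583* and *Olfr566* (-0.80) and that of *Olfr569*, *Olfr584* and *Olfr582* (-0.77) stood between 46.4% and 58.7% of wild-type. *Olfr575* (-0.72), *Olfr571* (-0.66), *Olfr603* (-0.61), *Olfr561* (-0.56), *Olfr576* (-0.53) and *Olfr598* (-0.52) kept 60.6% to 69.7%. The probe set of *Olfr603* also covers the pseudogene *Olfr602-ps1*, and that of *Olfr576* reaches beyond its gene, so their signal may include other transcripts. *Olfr561*, *Olfr576*, *Olfr598* and *Olfr603* were less stable, being called in 7, 4, 3 and 3 of the 12 fits that left out 1 mouse, and the other 19 called members were called in all 12. *Olfr603* was also not called under any of the other 4 scalings of the arrays.

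The 10 members that were not called spanned from no visible difference to differences near the threshold. *Olfr594* ranged from -0.57 to -0.17 (median -0.44) in wild-type and from -0.72 to -0.091 (median -0.31) in ΔJ mice. The ΔJ mice covered the whole wild-type range, and the difference of 0.046 had a 95% interval from -0.21 to 0.30 (adjusted p = 0.995 by limma). *Olfr574* ranged from -3.68 to -3.12 (median -3.43) in wild-type and from -3.95 to -3.23 (median -3.54) in ΔJ mice. Here 4 ΔJ mice lay within the wild-type range, and the log2 difference of -0.14 had an interval from -0.46 to 0.17. *Olfr599* ranged from -1.36 to -0.55 (median -1.01) in wild-type and from -1.75 to -0.85 (median -1.25) in ΔJ mice. Its groups overlapped in 4 ΔJ mice, and the difference of -0.27 (SE 0.18) had an interval from -0.66 to 0.13.

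*Olfr586* had wild-type levels from -1.16 to -0.62 (median -0.93) and ΔJ levels from -1.43 to -1.04 (median -1.23). Of its ΔJ mice, 4 were below all wild-type mice (log2 difference -0.31, SE 0.11, adjusted p = 0.221 by limma). *Olfr572* had wild-type levels from -1.57 to -1.12 (median -1.34) and ΔJ levels from -2.07 to -1.46 (median -1.65). Again 4 ΔJ mice lay below the wild-type range (log2 difference -0.35, SE 0.12, adjusted p = 0.190 by limma). *Olfr597* had wild-type levels from -2.05 to -1.64 (median -1.71) and ΔJ levels from -2.30 to -1.89 (median -2.05). Its groups overlapped in 3 ΔJ mice (log2 difference -0.28, SE 0.11, adjusted p = 0.318 by limma). For these receptors the 95% intervals excluded 0 but the adjusted p did not pass, and a smaller decrease is not shown to be absent.

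The other 4 members without a call also had weak signals. Y-linked transcripts in the 7 females served as a rough gauge of signal without transcript, which varies between probe sets, with a mean level of -3.72 for *Kdm5d*, -4.69 for *Uty* and -4.99 for *Eif2s3y*. Of the members without a call described above, *Olfr574* came closest to the *Kdm5d* mean, with a mean of -3.41 in wild-type and -3.56 in ΔJ mice. *Olfr564* ranged from -4.98 to -4.44 (median -4.68) in wild-type and from -5.30 to -4.63 (median -4.87) in ΔJ mice. Both groups lay below the *Kdm5d* gauge and around the other gauges (log2 difference -0.21, SE 0.13). *Olfr585* ranged from -4.98 to -4.40 (median -4.77) in wild-type and from -5.33 to -4.62 (median -4.95) in ΔJ mice. It too lay below that gauge in every mouse (log2 difference -0.22, SE 0.13). *Olfr568* ranged from -3.65 to -2.66 (median -3.28) in wild-type and from -3.83 to -3.23 (median -3.72) in ΔJ mice. Its ΔJ median was at the gauge, and the log2 difference of -0.40 (SE 0.16) did not pass (adjusted p = 0.334 by limma). *Olfr589* ranged from -3.95 to -3.43 (median -3.75) in wild-type and from -4.58 to -3.68 (median -4.31) in ΔJ mice. Of its ΔJ mice, 5 were below all wild-type mice, and the log2 difference of -0.47 missed the call (SE 0.15, adjusted p = 0.0813 by limma). With the replicate number as a block, *Olfr589* passed (adjusted p = 0.0105 by limma). Among called members *Olfr598* was also below the *Kdm5d* gauge in its wild-type mean, which was the case for 4 of 33 members. In ΔJ mice the mean of 6 members was below it, including the called *Olfr598*, *Olfr600* and *Olfr603*, so their percentages of wild-type are less certain. *Kdm5d* ran from -4.23 to -3.05 in single females. The ΔJ means of the called *Olfr559* (-3.43), *Olfr593* (-3.42), *Olfr582* (-3.27) and the set of *Olfr585*, *Olfr583* and *Olfr566* (-3.30) lay in that range. Their percentages of wild-type are less certain too.

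Near-copies are described for the 4 pairs of members with the most similar windows, taken with their values known and therefore not tested, as the difference between both probe sets within each mouse. The probe set of *Olfr596* and *Olfr603* fell by 1.49 on the log2 scale, whereas the one with the symbol *Olfr603* alone fell by 0.61, a difference in response of 0.89 (SE 0.25). *Olfr582* fell by 1.44 and the set it shares with *Olfr569* and *Olfr584* by 0.77, a difference of 0.67 (SE 0.079). For this pair the within-mouse differences of the genotypes did not overlap, and for the other 3 pairs they did. The set of *Olfr585*, *Olfr583* and *Olfr566* fell by 0.80, and *Olfr585* alone, which was below the gauge, differed by -0.22 (difference in response 0.57, SE 0.15). *Olfr597* at -0.28 and *Olfr598* at -0.52 had windows 75.9% alike and a difference in response of -0.24 (SE 0.18). Where the probes of the shared sets lie is not known here.

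Unequal responses were tested between genes that sit next to each other. The difference of level between consecutive OR probe sets on a chromosome was taken in each mouse and compared between genotypes with limma over all 1195 such pairs, of which 3.1% were called at an adjusted p under 0.05. Of 28 pairs within the members, 8 were called, and of 117 pairs of intact class I genes 31. *Olfr593* and *Olfr594*, whose starts are 7.86 kb apart, differed in response by 0.91 (SE 0.11, adjusted p = 0.000186), the first falling to 54.8% of wild-type and the second staying at 103%. The set of *Olfr596* and *Olfr603* and the next gene *Olfr597*, 10.7 kb away, differed by 1.21 (SE 0.15, adjusted p = 0.000186). *Olfr593*, *Olfr594*, *Olfr596* and *Olfr597* lie on the plus strand.

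*Olfr566* stood out from both sides. It fell by 0.99 more than *Olfr564*, 52.8 kb away (SE 0.16, adjusted p = 0.00151), and by 0.80 more than *Olfr568*, 20.8 kb away (SE 0.16, adjusted p = 0.00687). Both of these gave little signal. *Olfr564* was below the *Kdm5d* gauge in every mouse, so that a fall in it could hardly be measured. *Olfr600* fell by 0.69 more than *Olfr599*, 7.93 kb away (SE 0.12, adjusted p = 0.00295), and *Olfr591* by 0.81 more than *Olfr589* (SE 0.15, adjusted p = 0.00437), whose mean was below the *Kdm5d* gauge in both genotypes. With the replicate number as a block, 12 pairs of members were called.

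**Figure D2:**
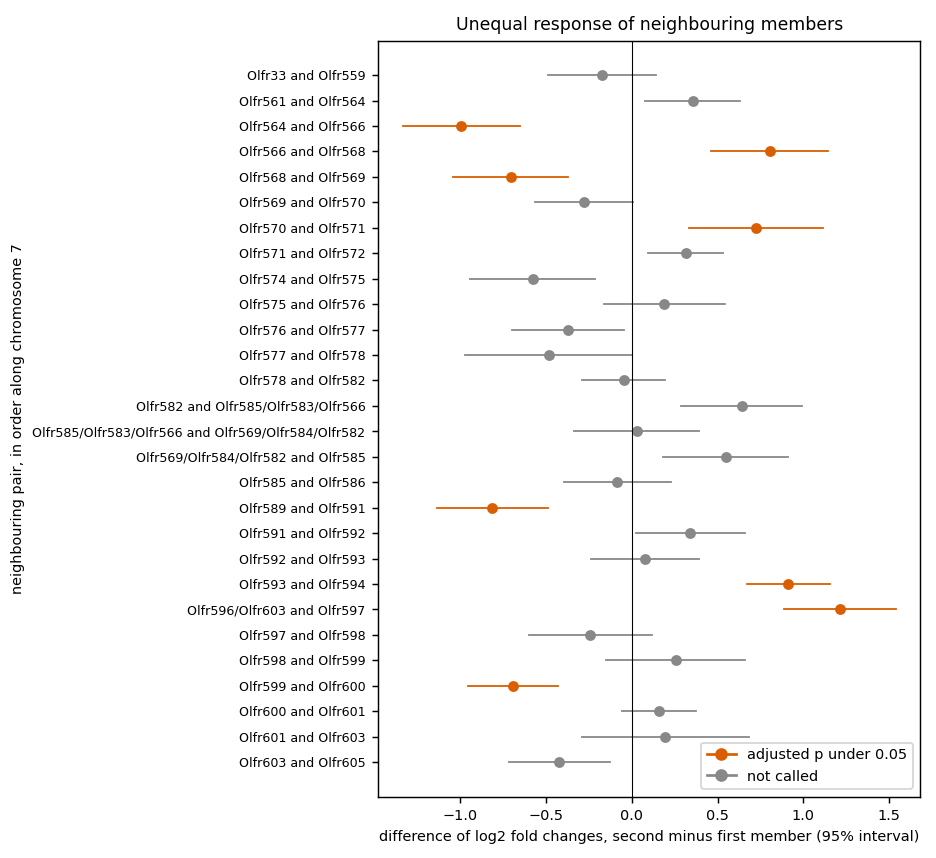
Difference between the log2 fold changes of neighbouring members (second minus first, horizontal) with its 95% interval, for 28 pairs in order along chromosome 7. Orange marks the 8 pairs at an adjusted p under 0.05, which point in both directions and include *Olfr593* and *Olfr594* at 0.91.

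Members with and without a call occurred along the whole stretch. From 0.2 to 0.4 Mb from J, 7 of 9 members were decreased (median log2 fold change -1.11), from 0.4 to 0.6 Mb 7 of 10 (-0.75), from 0.6 to 0.8 Mb 4 of 7 (-0.87) and from 0.8 to 1.0 Mb 5 of 7 (-0.61). Across the 33 members, which share the same arrays and are not independent replicates, log2 fold change and distance had r = 0.13 and rho = 0.095. On the minus strand 13 of 15 members were decreased (median -0.96), and on the plus strand 10 of 18 (median -0.53). Weak signals were more frequent on the plus strand. Among members with a wild-type mean above -3, 12 of 13 on the minus strand (median -1.03) and 9 of 13 on the plus strand (median -0.77) were decreased. In the other class I genes of the cluster, 29 of 48 on the minus strand and 21 of 47 on the plus strand were decreased, with medians of -0.56 and -0.47. The difference between strands is a description and was not tested.

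**Figure D3:**
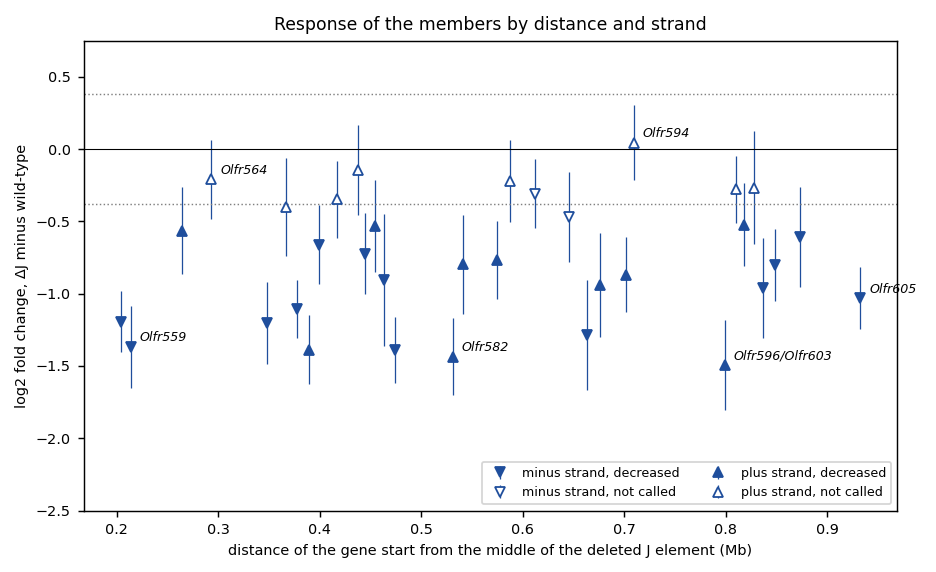
Log2 fold change of each member (ΔJ minus wild-type, vertical, with 95% intervals) by distance of its gene start from the middle of J in Mb. Triangles point down for the minus and up for the plus strand, filled symbols are the 23 decreased members, and dotted lines mark 1.3-fold. Members near -1.4 occur from 0.214 Mb (*Olfr559*) to 0.799 Mb (*Olfr596*/*Olfr603*).

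The decrease was present in each ΔJ mouse. Between 28 and 33 members per ΔJ mouse were below the wild-type mean, and between 24 and 30 were below all 6 wild-type mice. In single wild-type mice 5 to 24 members were below that mean. The share of all OR probe sets was not counted for single mice. The median difference from the wild-type mean over the members ran from -0.95 (ΔJ replicate 4) to -0.59 (ΔJ replicate 1), and in single wild-type mice from -0.14 to 0.25. The mean level of the members minus that of class II genes lay between -0.028 and 0.10 for the wild-type mice and between -0.76 and -0.48 for the ΔJ mice, without overlap. ΔJ replicate 5, at -0.48, was closest to the wild-type mice and also had the lowest class II level, -2.29, where the other 11 mice ranged from -2.08 to -1.67.

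**Figure D4:**
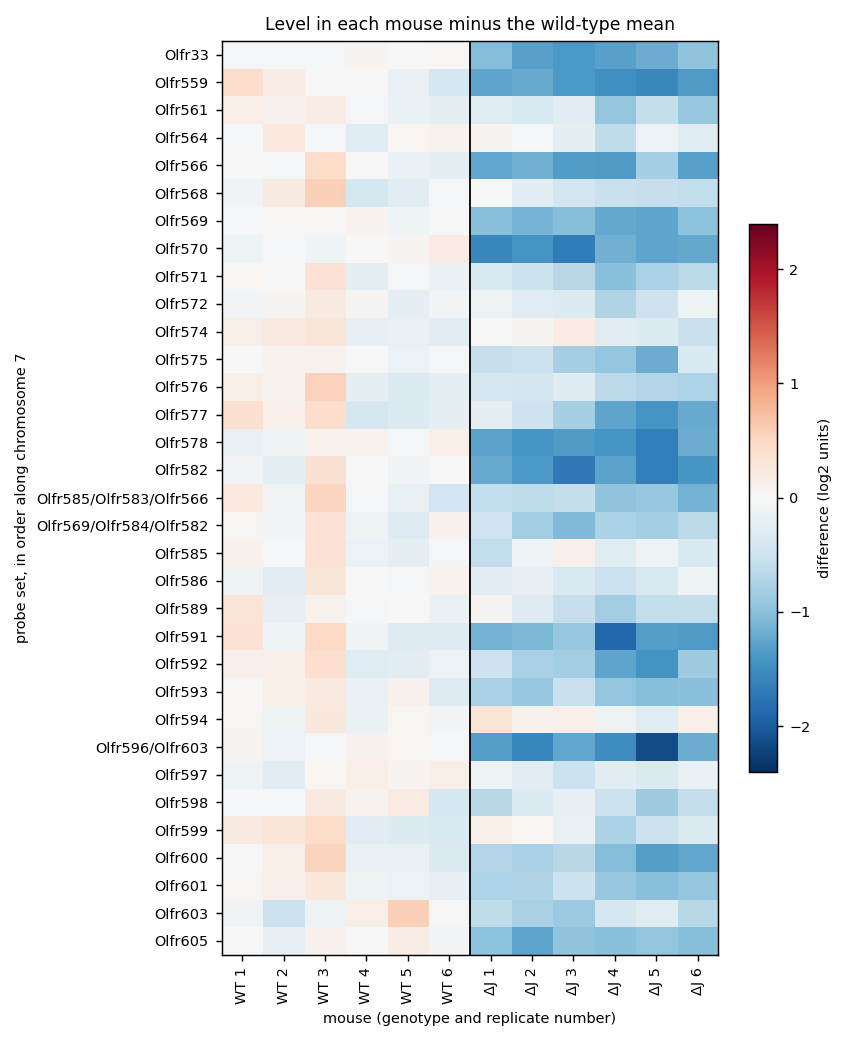
Level of each member (rows, in order along chromosome 7) in each mouse (columns, by genotype and replicate number) minus the wild-type mean of that member, in log2 units (colour). Blue fills most of the ΔJ columns, and the row of *Olfr594* holds both pale blue and pale red in either genotype.

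The arrays fall into 2 sets by replicate number, 1 to 3 and 4 to 6, that differ in the SD of all log2 signals (2.07 to 2.13 and 2.20 to 2.23). The sets hold separate mice and gave nearly the same order of responses, with r = 0.93 and rho = 0.94 across the 33 members as a description. All 23 called members were lower in ΔJ in both sets. They were called from these same arrays, so this is not separate support. Of the 33 members 32 were lower in both sets, *Olfr594* being the exception (0.13 and -0.039). Lower in both were also 519 of 1213 OR probe sets, 82 of 95 other intact class I sets and 394 of 1072 class II sets. Of the genotype by array set terms, 0 of 33 members had an unadjusted p under 0.05, as did 24 of 1213 OR probe sets. In males and females 32 members were lower in ΔJ, again all except *Olfr594*. The share of all OR probe sets lower in both sexes was not counted. For genotype by sex, 0 members passed adjustment, as did 0% of OR probe sets, and 1 member and 34 of 1213 OR probe sets had an unadjusted p under 0.05, the member being *Olfr575* (log2 fold change -0.98 in females and -0.45 in males, adjusted p = 0.968 by limma).

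**Figure D5:**
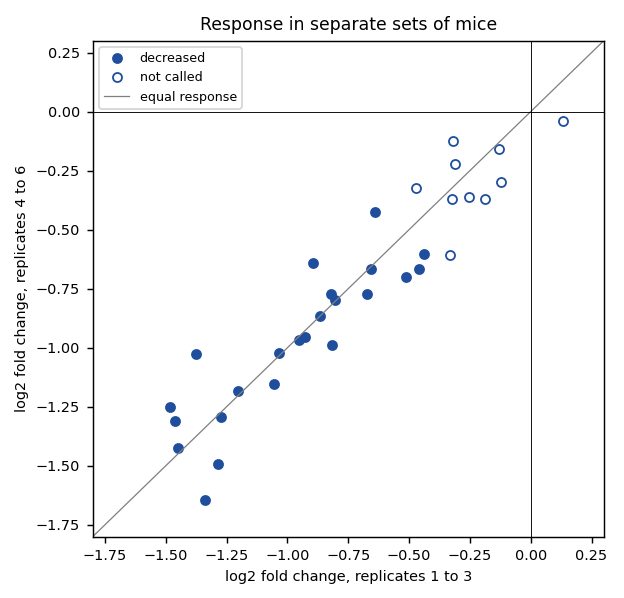
Log2 fold change of each of the 33 members from replicates 1 to 3 (horizontal) and from replicates 4 to 6 (vertical), with filled circles for the decreased members. The points follow the line of equal response (r = 0.93), and *Olfr594* is alone in lying right of 0 on the horizontal axis.

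Genes that OSNs need to choose and use a receptor were measured on the same arrays. Of 35 listed, 33 were measured and 0 changed in a fit over every probe set (0 also at an unadjusted p under 0.05), with a median log2 fold change of 0.00097, where 0.135% of all probe sets passed in either direction. *Lhx2*, the homeodomain factor of OR enhancers, differed by 0.0024 (SE 0.11), *Ldb1*, its adaptor, by -0.013 (SE 0.051), and *Ebf1* by -0.082 (SE 0.12). *Rtp1* and *Rtp2*, which carry receptors to the membrane, differed by 0.00097 (SE 0.064) and -0.011 (SE 0.10). *Adcy3*, the adenylyl cyclase of odorant signalling, differed by 0.040 (SE 0.070) and *Gnal*, its G protein, by -0.15 (SE 0.12). These differences were smaller than the fall of every called member.

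The tissue carried the markers of its label. All 10 listed genes of mature OSNs were measured with wild-type levels of 2.49 to 5.07, and their mean per mouse ran from 3.43 to 3.54 in wild-type and, in ΔJ, from 3.30 to 3.56. Markers of immature OSNs, basal cells, sustentacular cells, glands and respiratory cells, the vomeronasal organ, glia, immune cells and the dorsal and ventral zones gave 0 genes that passed, adjusted or unadjusted. The 2 measured vomeronasal receptor genes were low (-4.33 and -2.39 in wild-type mice). In the list of glands and respiratory cells, *Scgb1a1*, a gene of airway secretory cells, was at -5.49 in wild-type mice. The rest of that list was higher, with *Foxj1* at 0.69, *Muc5b* at 2.87, *Sec14l3* at 4.16 and *Bpifb9b* at 5.21. All 5 immune genes (median 0.14), all 4 measured bulb and glia genes (median 0.11) and 6 of 7 immature OSN genes (median 0.058) differed upward without passing. The mean of the immune genes ran from -0.18 to 0.30 in wild-type and from -0.13 to 0.70 in ΔJ mice, and that of the immature OSN genes from 1.72 to 1.89 and from 1.78 to 2.00. The part of these lists in the members' decrease was not tested.

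The other intact class I genes of the cluster gave the scale for these responses. Of 95, 50 were decreased (52.6%) with a median of -0.50, against 23 of 33 members (69.7%) with a median of -0.77. The lowest log2 fold change was -2.67 in the rest of the cluster and -1.49 in the members, so the largest single loss lay elsewhere. Decreases beyond 2-fold were called in 10 of 33 members and in 15 of the 95 other class I genes. Of 1072 class II probe sets, 0 were decreased (8 had an unadjusted p under 0.05) and the median was -0.036. These counts were not compared by a test.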

How the data were processed

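RNA of the MOE of 12 mice was measured on 12 arrays, 1 per mouse. For 35556 probe sets, log2 signals were deposited by the authors. Affymetrix Expression Console is the software named in the submitters' notes. How it corrected background and summarized probes is not given in the sources used. Groups came from the labels, sex and age likewise.

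The 75th percentile of each array was subtracted. A linear model with genotype alone was run in limma 3.58.1 (R 4.3.3, lmFit then eBayes) across the 1213 OR probe sets, followed by Benjamini-Hochberg adjustment. Calls needed a fold beyond 1.3 and an adjusted p under 0.05. OR probe sets and gene classes were taken from the identifier columns of the study's supplementary list. Pathway and marker genes were fitted over every probe set. The scripts were tested on simulated data. Windows came from RefSeq tables of GRCm38.p6 and were aligned with Biopython 1.88.

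Values in single mice are given for the 8 called members with the largest decrease, every member not called, and the members nearest to and farthest from J. The neighbour pairs described are the 6 with the smallest p. The rule for the members uses no measured value, but it, the lists and the tests were chosen with earlier results of these data known. The number of arrays limits the precision. The p-values set the difference between the groups against the spread between these mice, which limma moderates over the probe sets of the fit.

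Replicate numbers occur in both groups. Deviations from the group means of same-numbered arrays correlated at 0.18 to 0.44 in all 6 pairs, which is over 0.1 in each. The main model has no block, and a blocked model by replicate is reported beside it where a call changed. What a number stands for is not given in the labels. Alternatives covered scaling, blocks, covariates, filters, fold criteria, the fit over every probe set and each mouse left out.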

Additional observations from a re-analysis of the deposited data

Results flagged for a closer look

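In 66 groups of 6 mice (33 members, both genotypes), 3 had a mouse far from the others by Dixon's ratio, where chance alone gives about 1 in 20. *Olfr566* was at 0.46 in wild-type replicate 3, against 0.024 in the next mouse, and at -0.78 in ΔJ replicate 5, against -1.13 in the next. *Olfr605* was at -2.53 in ΔJ replicate 2, against -2.30 in the next. Both members remained decreased with any mouse left out.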

How the results depend on the processing

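The median log2 fold change of the members stayed between -0.85 and -0.69 under every alternative. The number of decreased members fell from 23 to 15 when the fit and adjustment ran over every probe set, where 0.129% were decreased. *Olfr561*, *Olfr571*, *Olfr576*, *Olfr577*, *Olfr592*, *Olfr598*, *Olfr603* and the set of *Olfr585*, *Olfr583* and *Olfr566* were lost there. Each mouse left out gave 19 to 22 decreased members and 6 to 9 called neighbour pairs. With the replicate number as a block, 24 members were decreased (*Olfr589* added) and 12 neighbour pairs were called. A block for array set gave 25 members (*Olfr568* and *Olfr589* added) and 12 pairs. For either block the shares over all OR probe sets and all neighbouring pairs were not counted. The remaining alternatives gave 20 to 24 decreased members. *Olfr594* turned to -0.039 with replicates 4 to 6 alone and ran from -0.011 (without ΔJ replicate 1) to 0.12 (without ΔJ replicate 5) as each mouse was left out, and was never called. For single members, 857 of 917 values kept direction and side of the threshold, 50 lost and 8 gained a call. These values include the settings that changed only the fold criterion or kept only members with a single symbol. Such settings reuse the main fit and were judged here at 1.3-fold, so their values could not differ. At a fold criterion of 1.5, 20 members were decreased, and *Olfr561*, *Olfr576* and *Olfr598* were lost. The causes of these changes were not tested. Means below the *Kdm5d* gauge in at least 1 genotype limit *Olfr564*, *Olfr585*, *Olfr589*, *Olfr598*, *Olfr600* and *Olfr603*, and *Olfr568* and *Olfr574* lay close to it.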

Other observations

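Of the OR pseudogenes in the same stretch, 4 had probe sets of their own. *Olfr588-ps1* fell from a wild-type mean of -2.27 ± 0.31 (SD, n = 6) to -3.61 ± 0.18 in ΔJ mice. The log2 fold change was -1.34 (SE 0.14, adjusted p = 9.59e-06 by limma), without overlap between the groups. *Olfr573-ps1* (-0.27), *Olfr587-ps1* (-0.21) and *Olfr595-ps1* (-0.20) were not called, each with a wild-type mean of -3.67 or lower.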
